A study of Mus musculus with 13 samples.

Results

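Transcript levels of 9 costimulatory receptor genes were measured in sorted CD4+ T cells of the mouse spleen. The 9 genes were those whose symbol in the deposited table was Tnfrsf4, Tnfrsf9, Tnfrsf18, Tnfrsf1b, Tnfrsf25, Cd27, Fas, Icos or Cd28. All 9 were found among the 18649 genes of the table, and all 9 were among the 14177 genes tested. The first 7 belong to the TNF receptor superfamily and the other 2 to the CD28 family.

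The study compared CD4+ T cells that lack Foxp3 and carry much PD-1 with regulatory and conventional T cells. The first population, here PD1hi, was CD4+ and PD1hi and negative for the GFP that reports Foxp3, with 3 libraries. Regulatory T cells, here Treg, were CD4+, PD-1- and GFP(Foxp3)+, with 5 libraries, and conventional T cells, here Tconv, were CD4+, PD-1- and negative for GFP, with 5 libraries. The labels give no treatment, and they do not state the strain, age or sex of the mice or how many animals went into a library. All 3 populations thus share the tissue, the CD4 gate and the Foxp3 reporter. They occur together in each of 3 experiments, which the titles number 3, 5 and 6.

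As background, receptors of the TNF family bind ligands that form trimers and pass the signal through TRAF adaptors to NF-kB and stress kinases, which supports survival and division of T cells that have met antigen. Fas and the product of Tnfrsf25 also carry a death domain, and Fas can start the caspase cascade of apoptosis. CD28 is the costimulator that naive T cells use, with CD80 and CD86 as its ligands, and ICOS, its relative, appears after activation and signals strongly through PI3-kinase. Regulatory T cells are known for high OX40, GITR and TNFR2, the products of Tnfrsf4, Tnfrsf18 and Tnfrsf1b, and follicular helper T cells for high ICOS.

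Values are scaled counts, reads per gene divided by a size factor of the library. They are given for each library, and as mean ± SD over 3 values per population (n = 3), 1 per experiment, after averaging the libraries of the same experiment and population. Libraries held 15971126 to 24216463 reads in genes, and each of the 9 genes had at least 345 reads in each library. Fold changes are log2 values of scaled count + 1 ± SE from limma, with Benjamini-Hochberg adjusted p over all 14177 genes and a call at adjusted p under 0.05. The labels do not say whether libraries came from separate animals, so a p-value here reflects the scatter among these samples only, part of which may be technical. The sort was visible in its genes. The PD-1 gene Pdcd1 had 37372 ± 3290.1 scaled counts in PD1hi against 1955 ± 38.5 in Treg and 1132 ± 136 in Tconv, and Foxp3 was at 15889 ± 513 in Treg against 106 ± 33.4 and 291 ± 35.8. The second Treg library of experiment 3 and the PD1hi library of experiment 6 stood apart from the others of their population. A chi-square comparison of reads, divided by its degrees of freedom, was 73.5 between the former and its pair, where the other pairs from the same experiment gave 7.768 to 9.047. The latter gave 59.51 and 66.2 with the other PD1hi libraries, which gave 22.32 with each other.

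The 9 genes differed in their pattern over the 3 populations. Tnfrsf4, Tnfrsf9, Tnfrsf18 and Tnfrsf1b rose from Tconv to PD1hi and again from PD1hi to Treg, and Icos rose steeply from Tconv to both. Fas rose in PD1hi against both other populations, and Cd28 rose in PD1hi against Treg. Cd27 passed no test in the main fit, which did not block by experiment. Its difference of Treg from Tconv passed in 8 of 22 other settings of the analysis, including the block by experiment. Tnfrsf25 fell in PD1hi against Tconv, a call lost in 11 of these settings, and the call of Tnfrsf4 in PD1hi against Treg was lost in 7.

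In PD1hi against Tconv, 7 of the 9 genes passed the test, 6 higher and 1 lower, where 26.1% of all genes tested passed (14.2% higher and 11.9% lower). In PD1hi against Treg, 6 passed, 2 higher and 4 lower, against 16.5% of all genes (8.16% higher and 8.39% lower). In Treg against Tconv, 5 passed, all higher, against 14.4% of all genes (8.73% higher and 5.66% lower). A fit that blocks by experiment called 6 of the 9 genes in this comparison, all higher. The 3 values of both populations did not overlap for 8, 7 and 9 of the 9 genes in these comparisons, where this held for 39.9%, 30.4% and 34.2% of all genes. Of these, 7 were higher and 1 lower in the first comparison (20.5% and 19.4% of all genes), 2 higher and 5 lower in the second (15.2% each) and 7 higher and 2 lower in the third (17.9% and 16.4%). The comparisons share populations and are therefore not separate evidence. Without the 2 libraries that stood apart, 7, 6 and 7 of the 9 genes passed in the same order of comparisons. In the first all 7 were higher, as Cd28 was gained and Tnfrsf25 lost. The second had 2 higher and 4 lower, and in the third all 7 were higher. In bulk RNA, fewer cells that express a gene and less RNA per cell cannot be told apart.

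**Figure D1:**
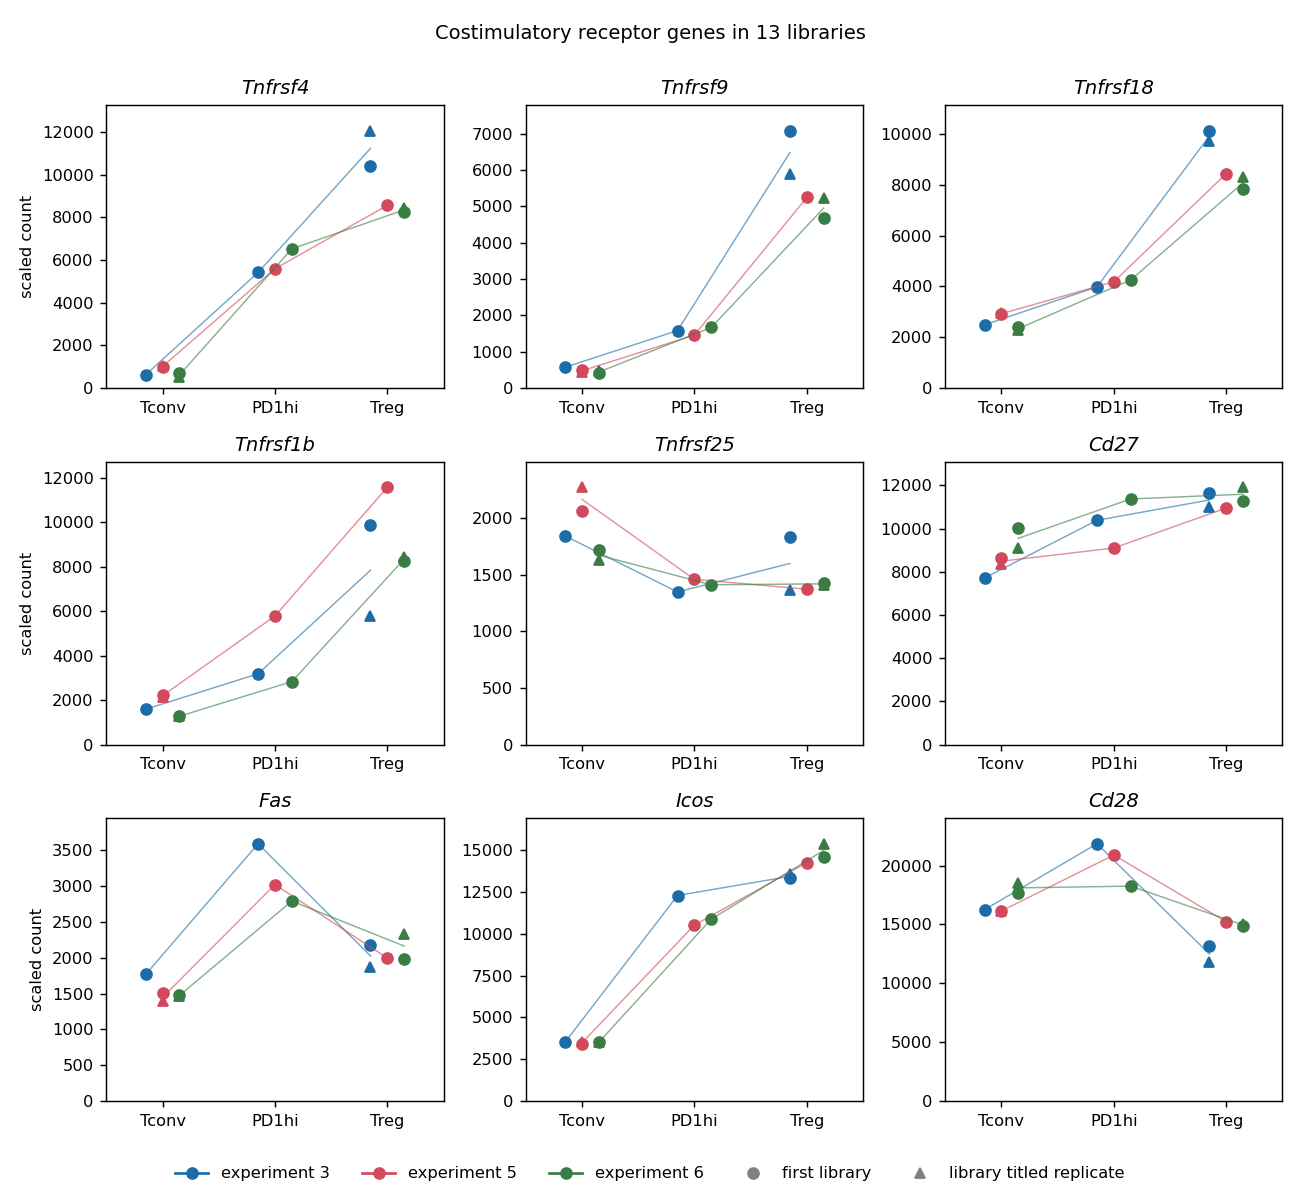
Scaled counts of the 9 genes on linear axes from 0. Points are the 13 libraries, triangles are libraries titled replicate, colours are experiments, and lines join the means of an experiment. Tnfrsf4, Tnfrsf9, Tnfrsf18, Tnfrsf1b and Icos climb from Tconv over PD1hi to Treg in each of the 3 experiments. Fas peaks in PD1hi, and Tnfrsf25 is highest in Tconv. The means of Cd28 are also highest in PD1hi, but hardly above Tconv in experiment 6.

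Tnfrsf4 (ENSMUSG00000029075) encodes OX40, which binds OX40 ligand and prolongs the life of activated T cells. Its scaled count in Tconv was 620.2 in experiment 3, 992 and 1022 in experiment 5, and 693 and 520.0 in experiment 6. In PD1hi it was 5412 in experiment 3, 5585 in experiment 5 and 6518 in experiment 6. In Treg it was 10402 and 12056 in experiment 3, 8557 in experiment 5, and 8236 and 8452 in experiment 6. The 3 populations did not overlap in any library, and Treg of experiment 3 was the highest. The gene rose by 3.01 ± 0.20 in PD1hi against Tconv (adjusted p = 8.82e-07), 8.03-fold, and by 3.68 ± 0.20 in Treg against Tconv (adjusted p = 3.58e-07), 12.8-fold. These are the largest log2 differences of the 9 genes in both comparisons. Within experiments the PD1hi to Tconv difference ran from 2.47 to 3.42 and that of Treg to Tconv from 3.09 to 4.18. PD1hi differed from Treg by -0.67 ± 0.20 (adjusted p = 0.0369), by -1.05 to -0.36 within experiments. This call was lost when the Treg value of experiment 3, 5 or 6 or the PD1hi value of experiment 3 or 5 was left out, with log2 differences of -0.75 to -0.54 and adjusted p up to 0.143. A fit that blocks by experiment (-0.67, adjusted p = 0.0549) and scaling to equal totals (-0.60, adjusted p = 0.0835) lost it too.

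Tnfrsf18 (ENSMUSG00000041954) encodes GITR, a receptor that is present on resting Treg and is induced on other T cells by activation. It is the neighbour of Tnfrsf4 on chromosome 4, in the same direction. In Tconv the scaled count was 2486 in experiment 3, 2902 and 2945 in experiment 5, and 2382 and 2283 in experiment 6. The PD1hi libraries held 3978 in experiment 3, 4179.9 in experiment 5 and 4251 in experiment 6. The Treg libraries held 10126 and 9704 in experiment 3, 8435 in experiment 5, and 7846 and 8301 in experiment 6. PD1hi values lay within a narrow range above all Tconv libraries and below all Treg libraries. GITR message rose by 0.69 ± 0.13 in PD1hi against Tconv (adjusted p = 0.00209) and by 1.77 ± 0.13 in Treg against Tconv (adjusted p = 4.46e-06). The difference of PD1hi from Treg was -1.09 ± 0.13 (adjusted p = 0.000114), so Treg held 2.12 times the level of PD1hi. The direction was the same in all 3 experiments of each comparison.

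Although the genes are neighbours, Tnfrsf4 and Tnfrsf18 did not differ to the same extent. The ratio of their scaled counts, Tnfrsf18 over Tnfrsf4, was 4.01, 2.90 and 3.85 in Tconv of experiments 3, 5 and 6, 0.735, 0.748 and 0.652 in PD1hi and 0.883, 0.986 and 0.968 in Treg. Its mean ± SD was 3.59 ± 0.6, 0.712 ± 0.052 and 0.945 ± 0.055 (n = 3 each). None of the 3 populations overlapped, and each pair gave p = 0.1 in a 2-sided exact permutation test, also after adjustment over 6 comparisons of ratios, which is the smallest p that 3 against 3 values can give. In the reference annotation, Gm16008 lies between both genes on the opposite strand and overlaps Tnfrsf18. The sources used here do not say whether the counting used strand, so reads of Gm16008 and Tnfrsf18 cannot be told apart where they overlap. Gm16008 was at 334 in Treg, 134 in PD1hi and 112 in Tconv, far below Tnfrsf18. It rose in Treg against Tconv by 1.59 ± 0.24 (adjusted p = 0.000748). On the other side of Tnfrsf4, Sdf4 rose by 0.52 ± 0.11 in the same comparison (adjusted p = 0.00546).

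The promoters of the 4 TNF receptors that rose in both PD1hi and Treg are shown to let their sequences be compared. RefSeq promoter windows on GRCm38.p6 were found for 7 of the 9 genes, as 9 windows, and the 250 bases before the start were searched on both strands for 6 motifs. These were the NF-kB consensus, the AP-1 motif TGANTCA, the NFAT motif TGGAAA, the forkhead motif TGTTTAC, the RUNX motif TGTGGT and the STAT motif TTCNNNGAA. Among all 32851 windows of this length, 3.9%, 6.75%, 18.6%, 3.17%, 14% and 7.02% held them in this order. Capitals mark motif matches, and each sequence is written 5′ to 3′ on the strand of the gene. The Tnfrsf4 window (chr4:156013445-156013694, + strand) held 1 match, the NFAT motif read on the opposite strand, and the Tnfrsf1b window (chr4:145246871-145247120, - strand) held 1 STAT match.
Tnfrsf4: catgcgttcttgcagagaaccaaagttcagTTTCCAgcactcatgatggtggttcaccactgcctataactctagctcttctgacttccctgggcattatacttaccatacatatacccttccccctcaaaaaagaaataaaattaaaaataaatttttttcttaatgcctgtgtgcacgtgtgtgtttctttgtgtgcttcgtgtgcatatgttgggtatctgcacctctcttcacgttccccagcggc
Tnfrsf1b: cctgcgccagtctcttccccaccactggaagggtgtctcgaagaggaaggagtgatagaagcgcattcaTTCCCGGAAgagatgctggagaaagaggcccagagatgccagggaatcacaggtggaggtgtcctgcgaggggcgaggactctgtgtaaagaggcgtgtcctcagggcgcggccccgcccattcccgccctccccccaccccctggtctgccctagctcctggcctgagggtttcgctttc

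Shorter stretches show the matches of the others. The first stretch lies before the second RefSeq start of Tnfrsf9 (chr4:150927947-150927976, + strand) and carries the NF-kB consensus, as 2 overlapping matches on the + strand and 1 on the - strand. The second lies before the start of Tnfrsf18 (chr4:156026213-156026242, + strand) and carries the STAT motif. The third, given for contrast because Fas peaked in PD1hi and not in Treg, lies before the start of Fas (chr19:34290437-34290466, + strand) and carries the AP-1 motif.
Tnfrsf9: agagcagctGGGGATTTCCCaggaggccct
Tnfrsf18: tgctctacacTTCACAGAAggcctttacaa
Fas: ctgtgcagtggTGAGTCAgtgggtttcccc
The same Tnfrsf9 window also held an AP-1 and a STAT match and the Fas window a STAT match, none of which overlapped another motif. The window of the first Tnfrsf9 start held an NFAT match. No match was found in the Cd27 window, and the 2 Tnfrsf25 windows held a RUNX and a STAT match. Thus none of the 6 motifs was in the windows of all 4 genes that rose together. A match describes the letters and not a bound site.

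Tnfrsf9 (ENSMUSG00000028965) encodes CD137, an inducible receptor that marks T cells recently stimulated through the antigen receptor. In Tconv its scaled count was 569 in experiment 3, 497 and 448 in experiment 5, and 408 and 469 in experiment 6. PD1hi values were 1579 in experiment 3, 1454 in experiment 5 and 1664 in experiment 6. Treg values were 7078 and 5878 in experiment 3, 5240.1 in experiment 5, and 4666 and 5229.6 in experiment 6. The steps between the populations were close to even on the log2 scale, and no library of one population reached another. CD137 message rose by 1.67 ± 0.15 in PD1hi against Tconv (adjusted p = 8.51e-06), and PD1hi differed from Treg by -1.82 ± 0.15 (adjusted p = 6.16e-06). Treg exceeded Tconv by 3.49 ± 0.15 (adjusted p = 6.66e-08), 11.2-fold, with 3.47 to 3.51 within the 3 experiments. Camta1 overlaps Tnfrsf9 on the opposite strand and was at 217, 184 and 238 in PD1hi, Treg and Tconv, with no comparison past the test.

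Tnfrsf1b (ENSMUSG00000028599) encodes TNFR2, the TNF receptor without a death domain, which supports expansion of Treg. In Tconv its scaled count was 1586 in experiment 3, 2239.5 and 2148 in experiment 5, and 1270.4 and 1273 in experiment 6. In PD1hi it was 3179 in experiment 3, 5777 in experiment 5 and 2827 in experiment 6. In Treg it was 9891 and 5782 in experiment 3, 11567 in experiment 5, and 8236 and 8435 in experiment 6. Experiment 5 was the highest in all 3 populations, and in Treg of experiment 3 the second library held far less than the first. The highest experiment exceeded the lowest 2.04-fold in PD1hi, 1.48-fold in Treg and 1.73-fold in Tconv, more than for any other of the 9 genes in each population. TNFR2 message rose by 1.18 ± 0.27 in PD1hi against Tconv (adjusted p = 0.00655) and by 2.47 ± 0.27 in Treg against Tconv (adjusted p = 7.42e-05). PD1hi differed from Treg by -1.29 ± 0.27 (adjusted p = 0.00582). Within experiments these differences ran from 1.003 to 1.40, from 2.30 to 2.71 and from -1.56 to -1.001, so the shift of experiment 5 was shared by its populations. The PD1hi library of experiment 5 nevertheless met the second Treg library of experiment 3, at 5777 against 5782. The neighbouring gene Tnfrsf8, which encodes CD30, rose by 4.38 ± 0.32 in PD1hi and by 3.64 ± 0.32 in Treg against Tconv, from a low level of 35.7 ± 12.5. The neighbour on the other side, Vps13d, passed no test.

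Icos (ENSMUSG00000026009) encodes the inducible costimulator, which follicular helper cells need and effector Treg also carry. In Tconv the scaled count was 3518 in experiment 3, 3420.1 and 3535 in experiment 5, and 3499 and 3525 in experiment 6. The PD1hi libraries held 12279 in experiment 3, 10515 in experiment 5 and 10868 in experiment 6. The Treg libraries held 13309 and 13537 in experiment 3, 14242 in experiment 5, and 14574 and 15369 in experiment 6. Tconv libraries hardly varied, and both other populations lay far above them. Icos rose by 1.68 ± 0.11 in PD1hi (adjusted p = 1.13e-06) and by 2.02 ± 0.11 in Treg (adjusted p = 5.26e-07), both against Tconv. PD1hi and Treg differed by -0.34 ± 0.11 (95% interval -0.59 to -0.09, adjusted p = 0.0641), which did not pass, although PD1hi was below Treg in 3 of 3 experiments.

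Cd28 (ENSMUSG00000026012), next in the same family, encodes the costimulator of naive T cells and lies on chromosome 1 with Icos. In Tconv its scaled count was 16253 in experiment 3, 16139 and 16152 in experiment 5, and 17658 and 18556 in experiment 6. PD1hi values were 21854 in experiment 3, 20896 in experiment 5 and 18256 in experiment 6. Treg values were 13147 and 11848 in experiment 3, 15228 in experiment 5, and 14892 and 15014 in experiment 6. The populations lay close together, and the second Treg library of experiment 3 was the lowest. Cd28 rose in PD1hi against Treg by 0.52 ± 0.13 (adjusted p = 0.0172), 1.43-fold. That call was lost when the Treg or PD1hi value of experiment 3, or the PD1hi value of experiment 5, was left out (0.43, 0.46 and 0.50, with adjusted p = 0.067, 0.0619 and 0.0556). PD1hi against Tconv gave 0.27 ± 0.13 (95% interval -0.02 to 0.56, adjusted p = 0.159), with a difference of 0.01 in experiment 6. Treg against Tconv gave -0.25 ± 0.13 (95% interval -0.53 to 0.04, adjusted p = 0.281). Without both libraries that stood apart, PD1hi against Tconv passed, at 0.35 with adjusted p = 0.0363.

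Against Tconv, the balance of both relatives followed Icos. Between PD1hi and Treg, Cd28 differed by more (0.52) than Icos (-0.34, not past the test). The ratio of the scaled counts of Icos to Cd28 was 0.216, 0.215 and 0.194 in Tconv of experiments 3, 5 and 6, 0.562, 0.503 and 0.595 in PD1hi and 1.07, 0.935 and 1.001 in Treg. Its mean ± SD was 0.209 ± 0.013, 0.553 ± 0.047 and 1.004 ± 0.069 (n = 3 each), and the populations did not overlap. Each pair gave the smallest p that the 2-sided exact permutation test allows, p = 0.1.

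Fas (ENSMUSG00000024778) encodes the death receptor that Fas ligand engages. In Tconv its scaled count was 1767 in experiment 3, 1502 and 1391 in experiment 5, and 1476 and 1469 in experiment 6. In PD1hi it was 3590.2 in experiment 3, 3021 in experiment 5 and 2791 in experiment 6. In Treg it was 2176 and 1874 in experiment 3, 1995 in experiment 5, and 1988 and 2337 in experiment 6. Every PD1hi library was above every library of the others, and experiment 3 was the highest in PD1hi and Tconv. Fas rose by 1.002 ± 0.14 in PD1hi against Tconv (adjusted p = 0.000218), 2-fold, and by 0.60 ± 0.14 against Treg (adjusted p = 0.0109). Treg against Tconv gave 0.40 ± 0.14 (95% interval 0.10 to 0.71, adjusted p = 0.0812), with Treg higher in 3 of 3 experiments, by 0.20 to 0.55. It passed without both libraries that stood apart (0.44, adjusted p = 0.0217) and when the PD1hi value of experiment 6 was dropped (0.40, adjusted p = 0.0375). Among the 9 genes Fas was thus the one whose level in PD1hi passed the test as higher against both others. The neighbouring gene Acta2 rose by 1.88 ± 0.61 in PD1hi against Tconv (adjusted p = 0.0395), from a low level of 10.4.

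Cd27 (ENSMUSG00000030336) encodes a receptor of resting T cells that binds CD70. In Tconv its scaled count was 7712 in experiment 3, 8621 and 8356 in experiment 5, and 10012 and 9085 in experiment 6. The PD1hi libraries held 10383 in experiment 3, 9100.4 in experiment 5 and 11372 in experiment 6. The Treg libraries held 11669 and 10981 in experiment 3, 10954 in experiment 5, and 11269 and 11915 in experiment 6. Levels were high everywhere, and PD1hi overlapped both others. The log2 differences were 0.26 ± 0.13 in PD1hi against Tconv (95% interval -0.02 to 0.54, adjusted p = 0.169), -0.14 ± 0.13 in PD1hi against Treg (-0.42 to 0.14, adjusted p = 0.54) and 0.40 ± 0.13 in Treg against Tconv (0.12 to 0.68, adjusted p = 0.0621). Treg was above Tconv in 3 of 3 experiments, and that difference passed without the second Treg library of experiment 3 (0.42, adjusted p = 0.0489), and when the PD1hi value of experiment 6 was dropped (0.40, adjusted p = 0.0228). With the experiment as a block it passed as well (0.40, adjusted p = 0.0414). Vamp1 overlaps Cd27 on the opposite strand, and reads of both cannot be told apart without a strand setting. The level of Vamp1 is not given here, so the size of this limit is open. The neighbouring gene Tapbpl rose by 0.57 ± 0.13 in Treg against Tconv (adjusted p = 0.00879), in the direction of Cd27. Tuba3a, the neighbour on the other side, passed no test.

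Tnfrsf25 (ENSMUSG00000024793) encodes DR3, a death domain receptor that costimulates T cells through the ligand TL1A. In Tconv its scaled count was 1842 in experiment 3, 2059 and 2273 in experiment 5, and 1717 and 1627 in experiment 6. PD1hi values were 1348 in experiment 3, 1459 in experiment 5 and 1411 in experiment 6. Treg values were 1832 and 1367 in experiment 3, 1372 in experiment 5, and 1431 and 1408 in experiment 6. Tconv was above PD1hi in every library, and the first Treg library of experiment 3 lay among the Tconv libraries. The change in PD1hi against Tconv was -0.42 ± 0.14 (adjusted p = 0.0418), the only fall from Tconv that passed among the 9 genes. It was no longer called when the PD1hi or Tconv value of experiment 3 or 5 or the Treg value of experiment 5 or 6 was left out, with values of -0.45 to -0.32 and adjusted p up to 0.157, nor without the second Treg library of experiment 3 (-0.42, adjusted p = 0.0594) or without both libraries that stood apart (-0.42, adjusted p = 0.0681). Treg against Tconv gave -0.37 ± 0.14 (95% interval -0.67 to -0.06, adjusted p = 0.112) and PD1hi against Treg -0.06 ± 0.14 (-0.36 to 0.25, adjusted p = 0.844). The neighbouring gene Plekhg5 rose by 1.82 ± 0.34 in PD1hi against Tconv (adjusted p = 0.00163), opposite to Tnfrsf25.

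**Figure D2:**
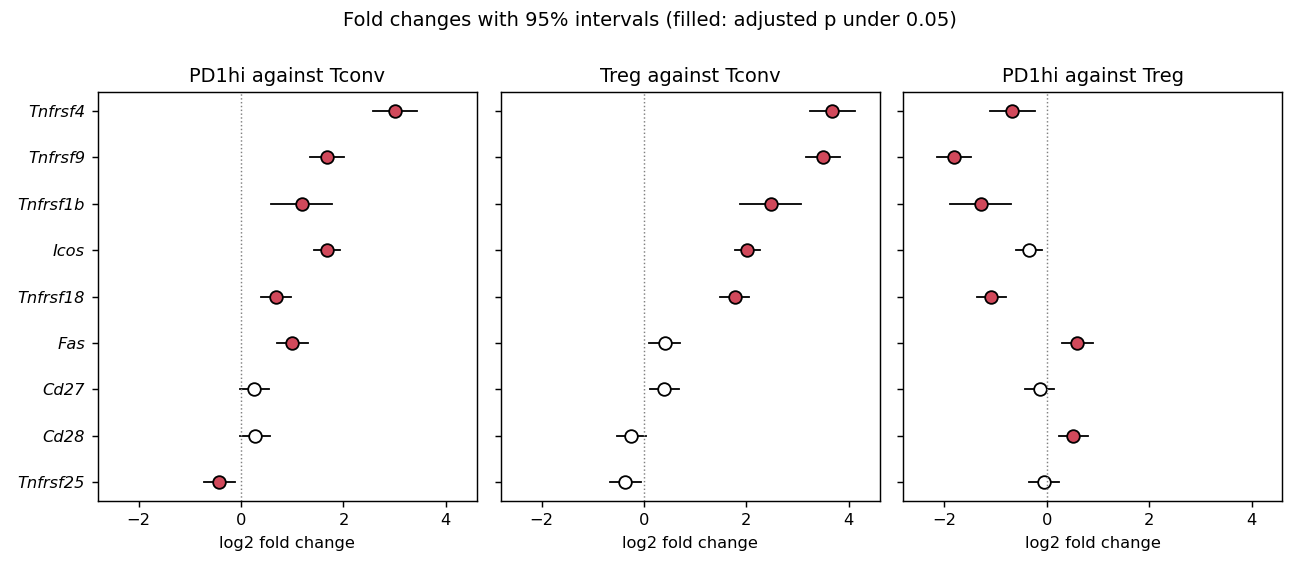
Log2 fold change of each of the 9 genes (x axis) in the 3 comparisons, with 95% intervals. Filled points passed the test. Against Tconv, 6 genes are filled to the right of 0 in PD1hi and 5 in Treg, and in PD1hi against Treg 4 genes lie filled to the left and Fas and Cd28 to the right.

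Levels of different genes were compared per kilobase of exon, with exon lengths from GENCODE M21. In Treg the order of the length-scaled levels was Tnfrsf4 at 6869 ± 1178, Tnfrsf18 at 5779 ± 640.3, Cd27 at 4849.9 ± 138, Icos at 4143 ± 226, Tnfrsf1b at 2422 ± 530.5, Cd28 at 2324 ± 246, Tnfrsf9 at 2041 ± 298, Fas at 999 ± 43.4 and Tnfrsf25 at 643 ± 52.7 scaled counts per kilobase. The SD ranges of Tnfrsf4 and Tnfrsf18 overlapped, as did those of Tnfrsf1b, Cd28 and Tnfrsf9 among themselves. In PD1hi the length-scaled levels were 4418 ± 489 for Cd27, 4277 ± 435 for Tnfrsf4, 3322 ± 304 for Cd28, 3271 ± 272 for Icos, 2714 ± 93.0 for Tnfrsf18, 1519.9 ± 199.6 for Fas, 1029 ± 422 for Tnfrsf1b, 617 ± 24.5 for Tnfrsf25 and 575 ± 38.9 for Tnfrsf9. Here Cd27 overlapped with Tnfrsf4, Cd28 with Icos, Fas with Tnfrsf1b, and the last 3 with their neighbours. In Tconv the length-scaled order was Cd27 at 3687 ± 396, Cd28 at 2749.9 ± 180.1, Tnfrsf18 at 1693 ± 201, Icos at 1021 ± 6.29, Tnfrsf25 at 832 ± 110.2, Fas at 758 ± 86.2, Tnfrsf4 at 545 ± 166, Tnfrsf1b at 441 ± 123 and Tnfrsf9 at 181 ± 24.9. The ranges from Tnfrsf25 to Tnfrsf1b overlapped from each gene to the next. OX40 message thus moved from the seventh place of the 9 genes in Tconv to the first in Treg, whereas Cd27 was the first in Tconv and PD1hi and the third in Treg.

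**Figure D3:**
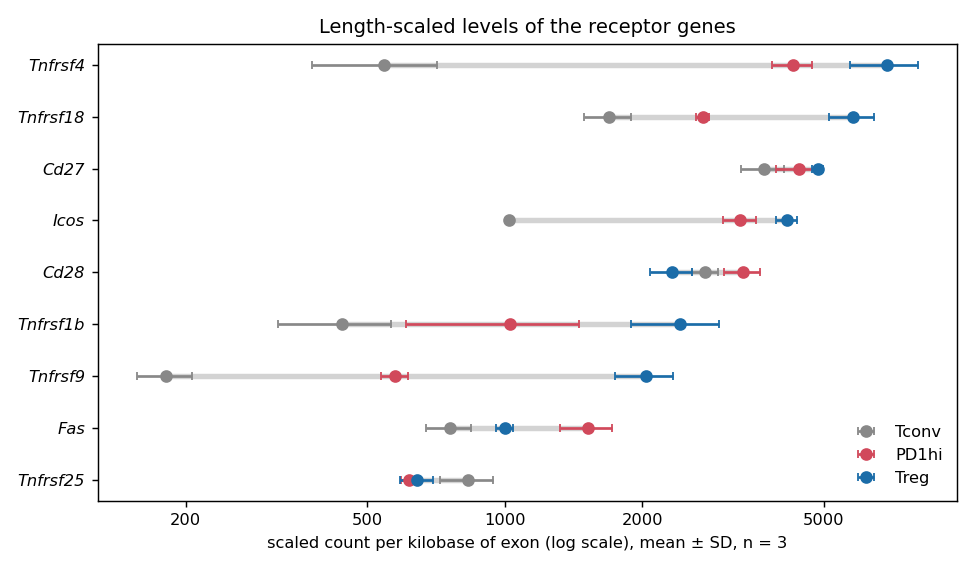
Scaled counts per kilobase of exon on a log axis for the 9 genes, as mean ± SD of 3 values per population. Tnfrsf4 spans the widest range, from 545 in Tconv to 6869 in Treg, while the 3 points of Cd27, Cd28 and Tnfrsf25 lie close together.

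For each of the 9 genes, the 2 genes with the highest Pearson r of log2(scaled count + 1) over the 9 values were listed as a description. The 9 values form 3 populations and share their libraries, so r mostly states that the population means have the same order. Tnip3, an inhibitor of NF-kB signalling, was nearest to Tnfrsf4 (r = 0.997), with 137, 216 and 20.8 in PD1hi, Treg and Tconv, followed by Apol9b. Il2rb, a chain of the IL-2 and IL-15 receptors, was nearest to Tnfrsf9 (r = 0.991) and was second for Tnfrsf18, after the actin capping protein gene Capg (r = 0.992). Il2rb was at 14382, 27689 and 7842 in the same order of populations. The transcription factor gene Ikzf2, at 16611, 20942 and 1006, was nearest to Icos (r = 0.994), followed by Fam160a1. Egr2, a transcription factor induced by the antigen receptor, at 4818, 1642 and 840.4, was nearest to Fas (r = 0.986), followed by Cd200, a surface protein. Nearest to the others were Sec11c and Epcam for Tnfrsf1b, Rpl27a and Ckb for Tnfrsf25, Tspan32 and Gm17629 for Cd27, Tmem194b and Ankrd46 for Cd28, and 4930420K17Rik as the second for Tnfrsf9.

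The ligands of the 9 receptors were measured in the same cells, although T cells meet most of them on other cells. Of 11 ligand genes, 9 were tested. In PD1hi against Tconv 4 rose and 3 fell, in PD1hi against Treg 4 rose and 3 fell, and in Treg against Tconv 3 rose and 2 fell, with median log2 fold changes of 0.75, 0.66 and 0.33. Over all genes tested, the medians were within 0.01 of 0, and 26.1%, 16.5% and 14.4% passed in these comparisons. Counts for the lists below are to be read against these shares.

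The CD137 ligand gene Tnfsf9 had 335 ± 36.3 scaled counts in PD1hi, 88.4 ± 4.06 in Treg and 106 ± 12.1 in Tconv and rose in PD1hi against both, by 1.65 ± 0.22 against Tconv and 1.91 ± 0.22 against Treg (adjusted p = 0.00013 and 6.69e-05). PD1hi thus had more ligand and less receptor message of this pair than Treg. The OX40 ligand gene Tnfsf4 was at 41.0 ± 22.6, 1.45 ± 1.48 and 20.3 ± 9.13 in the same order, with 9 reads in all 5 Treg libraries together. It was lower in Treg than in PD1hi and Tconv, with log2 differences of 4.15 ± 0.67 for PD1hi against Treg (adjusted p = 0.000996) and -3.25 ± 0.67 for Treg against Tconv (adjusted p = 0.00601). The GITR ligand gene Tnfsf18 had 1, 3 and 16 reads over all libraries of PD1hi, Treg and Tconv and was not tested.

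Of the TNFR2 ligands, Tnf had 525 ± 43.5 scaled counts in PD1hi, 333 ± 15.3 in Treg and 312 ± 10.1 in Tconv and rose in PD1hi against Tconv by 0.75 ± 0.16 (adjusted p = 0.00427). Lta, which encodes lymphotoxin alpha, was at 623 ± 103, 1170.4 ± 97.2 and 536 ± 33.7 and rose in Treg against Tconv by 1.12 ± 0.16 (adjusted p = 0.000523). Tnfsf15, the gene of TL1A, was at 32.5 ± 26.6, 11.6 ± 3.04 and 2.26 ± 1.15 and rose in PD1hi against Tconv by 3.14 ± 0.64 (adjusted p = 0.0032), from 11 reads in all 5 Tconv libraries. Cd70, the gene of the CD27 ligand, had 36 reads in PD1hi and none in Treg or Tconv, which makes it at least 22.6-fold higher in PD1hi than in Treg and at least 20.4-fold higher than in Tconv, where 3 reads in a whole population were taken as the floor. These bounds allow for counting error only in the population without reads, and they take the 36 reads of PD1hi as they are. The scaled count of Cd70 ran from 3.26 to 20.5 between the PD1hi libraries, a spread that the bounds leave out. Reads made by PCR also do not each stand for a molecule.

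Fasl, the gene of Fas ligand, had 462 ± 152 scaled counts in PD1hi, 232 ± 38.9 in Treg and 1032 ± 57.0 in Tconv. It fell in PD1hi and in Treg, with log2 fold changes of -1.22 ± 0.24 and -2.16 ± 0.24 (adjusted p = 0.00279 and 8.72e-05), both against Tconv, where its receptor was lowest. Icosl, the gene of the ICOS ligand, was at 164 ± 33.9, 524 ± 1.59 and 422 ± 95.9 and was lower in PD1hi than in Tconv, with a log2 fold change of -1.36 ± 0.22 (adjusted p = 0.000615). The CD28 ligand gene Cd80 was at 294 ± 51.0, 302 ± 54.0 and 23.1 ± 3.05 and rose against Tconv by 3.61 ± 0.25 in PD1hi and 3.64 ± 0.25 in Treg (adjusted p = 1.25e-06 and 2.54e-06). The other CD28 ligand gene, Cd86, was at 125 ± 39.6, 1431 ± 318 and 218 ± 17.4. It rose in Treg against Tconv by 2.69 ± 0.24 (adjusted p = 1.46e-05), and PD1hi differed from Treg by -3.52 ± 0.24 (adjusted p = 1.13e-06). In PD1hi against Tconv Cd86 changed by -0.83 ± 0.24 (adjusted p = 0.0226), a call lost in 6 other settings. Both CD28 ligand genes were thus raised in Treg, and Cd80 in PD1hi.

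Of 12 other tested receptors of the TNF family, 3 rose and 3 fell in PD1hi against Tconv, 1 rose and 3 fell in PD1hi against Treg, and 3 rose and 1 fell in Treg against Tconv, with medians of -0.15, -0.14 and 0.01. Relt, a receptor of lymphoid cells, changed by -1.51 ± 0.18 in PD1hi against Tconv (adjusted p = 5.87e-05) and by -1.12 ± 0.18 against Treg (adjusted p = 0.00081). Cd40 rose by 3.10 ± 0.74 in PD1hi, to a level of 19.5 against 1.75 in Tconv. In PD1hi against Treg, Tnfrsf10b changed by -1.24 ± 0.33 (adjusted p = 0.0216) and Tnfrsf14 by 0.83 ± 0.26 (adjusted p = 0.0478), and in Treg against Tconv Tnfrsf13b changed by 0.61 ± 0.16 and Cd40 by 2.45 ± 0.74. These 4 calls were lost in 4, 15, 6 and 9 of the other settings. Without the second Treg library of experiment 3, 2 of the 12 genes passed in Treg against Tconv, both higher.

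Of the inhibitory relatives of CD28, Ctla4 had the same order of means as Icos, and Btla the same as Cd28. Ctla4, which encodes the inhibitory receptor that competes with CD28 for its ligands, had 9799 ± 902 scaled counts in Treg, 3377 ± 261 in PD1hi and 521 ± 71.8 in Tconv. It rose by 4.23 ± 0.14 in Treg and by 2.70 ± 0.14 in PD1hi against Tconv, and PD1hi differed from Treg by -1.54 ± 0.14 (adjusted p = 1.12e-05). Btla, an inhibitory receptor that binds the product of Tnfrsf14, rose in PD1hi by 0.91 ± 0.16 against Tconv and by 1.09 ± 0.16 against Treg (adjusted p = 0.00131 and 0.000553).

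Among 15 TRAF adaptors and their partners, 4 rose and 3 fell in PD1hi against Tconv, 2 rose and 3 fell in PD1hi against Treg, and 1 rose and 1 fell in Treg against Tconv, with medians of 0.15, 0.14 and 0.12. Tank, whose product binds TRAF proteins and regulates NF-kB, rose against Tconv by 1.35 ± 0.19 in PD1hi and 1.01 ± 0.19 in Treg (adjusted p = 0.000209 and 0.00301). Map3k14, which encodes NIK, the kinase of the alternative NF-kB pathway, changed by -0.96 ± 0.13 in PD1hi and -1.33 ± 0.13 in Treg (adjusted p = 0.000184 and 2.94e-05). The mean of the kinase gene was lowest in Treg, at 1356 against 1749.9 in PD1hi and 3408 in Tconv. Its difference of PD1hi from Treg, 0.37 ± 0.13, did not pass (adjusted p = 0.0806). In PD1hi against Treg, Traf3ip2 changed by 0.81 ± 0.19, Traf6 by -0.79 ± 0.20 and Traf3ip3 by -0.75 ± 0.14 (adjusted p = 0.0124, 0.0154 and 0.00268), the first 2 being lost in 2 other settings each. Traip changed by 0.90 ± 0.29 in PD1hi against Tconv and was lost in 9 settings. Without both libraries that stood apart, 4 of the 15 passed in Treg against Tconv, 3 higher and 1 lower.

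Of 8 genes of death domain signalling, none rose and 3 fell in PD1hi against Tconv, 1 rose and 2 fell in PD1hi against Treg, and none rose and 1 fell in Treg against Tconv, with medians of 0.11, -0.06 and 0.12. Casp8, the first caspase that Fas activates, changed by -0.70 ± 0.11 in PD1hi against Tconv and by -0.92 ± 0.11 against Treg (adjusted p = 0.000524 and 0.000103). Cflar, which encodes the caspase-8 regulator cFLIP, changed by -0.89 ± 0.15 and -0.92 ± 0.15 in the same comparisons (adjusted p = 0.000877 and 0.00105). PD1hi, where Fas was highest, thus held the least message of both. Daxx, named for its binding to Fas, changed by -0.75 ± 0.15 in PD1hi and -0.60 ± 0.15 in Treg against Tconv (adjusted p = 0.00215 and 0.0155), the latter lost in 4 other settings. Tradd, an adaptor of TNF receptors with a death domain, changed by 0.54 ± 0.17 in PD1hi against Treg (adjusted p = 0.0458) and was lost in 10.

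Of 20 genes of CD28 and ICOS signalling, 1 rose and 7 fell in PD1hi against Tconv, 2 rose and 4 fell in PD1hi against Treg, and none rose and 6 fell in Treg against Tconv, with medians of -0.24, -0.03 and -0.14. Pik3r5, a regulatory subunit of PI3-kinase gamma, changed by -3.16 ± 0.22 in PD1hi and -1.65 ± 0.22 in Treg against Tconv (adjusted p = 1.13e-06 and 0.000285). Grap2, the adaptor GADS that binds CD28 and SLP-76, changed by -2.67 ± 0.20 in PD1hi against Tconv and -1.69 ± 0.20 against Treg (adjusted p = 2.25e-06 and 9.87e-05). Pik3r1, the regulatory subunit that CD28 and ICOS recruit, changed by -1.75 ± 0.14 in PD1hi against Treg (adjusted p = 5.58e-06). Pdk1, by its symbol a pyruvate dehydrogenase kinase and not the kinase that acts on AKT, changed by -2.59 ± 0.19 in PD1hi and -1.04 ± 0.19 in Treg against Tconv. Malt1, the only gene of this list that rose in PD1hi against Tconv, changed by 1.94 ± 0.18 (adjusted p = 9.96e-06). It was also called higher in PD1hi than in Treg. In PD1hi and Treg, where Icos was high, the calls of this list against Tconv were mostly falls.

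**Figure D4:**
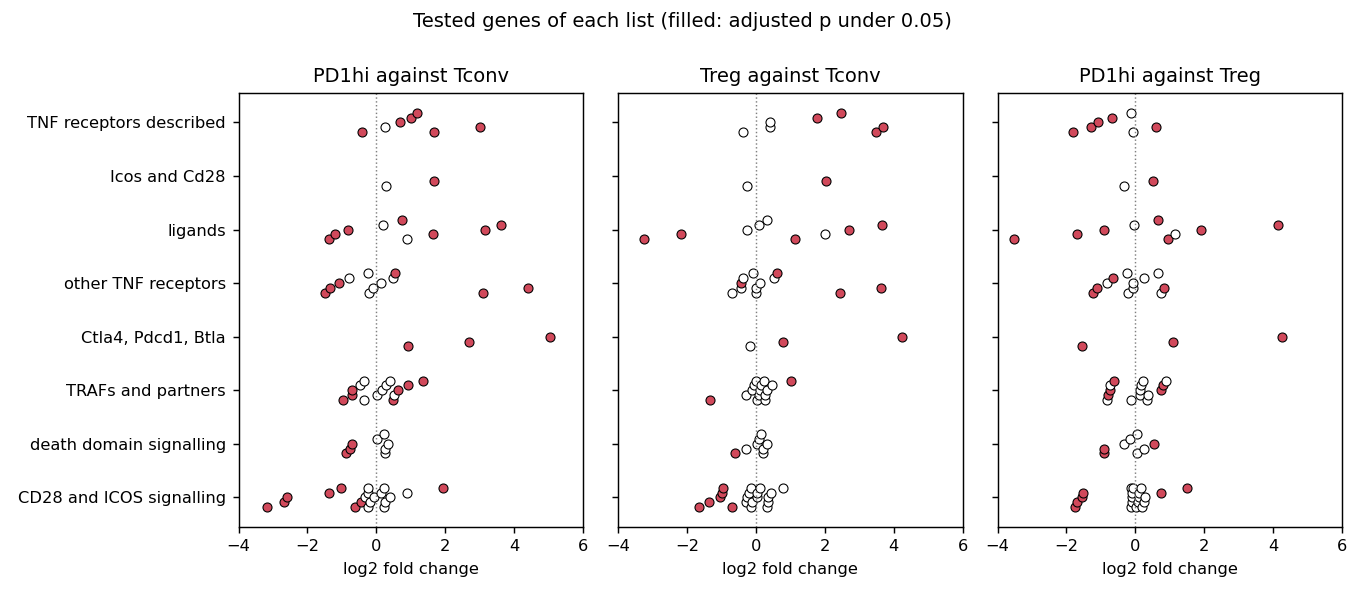
Log2 fold change of each tested gene (points) in 8 groups of genes for the 3 comparisons. Filled points passed the test. The receptors described here lie mostly to the right of 0 against Tconv, while the filled points of CD28 and ICOS signalling lie mostly to the left.

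Markers of some other cells that the sort could hold differed between the populations, and not all in the same direction. The summed scaled count of 11 B cell markers was 41924 to 55805 in PD1hi libraries, 63459 to 85133 in Treg and 22502 to 29085 in Tconv, and 4 of 7 tested markers were higher in PD1hi and 3 of 7 in Treg, against Tconv. Most of the sum was Ighm and Igkc, with Ighm at 36646 ± 2559.6, 65037 ± 3997 and 21764 ± 1496. Cd79a and Cd79b encode the signalling chains of the B cell receptor. Cd79a was at 42.2 ± 5.50, 61.3 ± 25.3 and 29.3 ± 4.29 and passed no test, whereas Cd79b was at 129.7 ± 39.4, 629 ± 83.8 and 57.8 ± 3.12 and rose in Treg against Tconv by 3.41 ± 0.26 (adjusted p = 5.11e-06). Cd22, a B cell lectin, was at 1675 ± 243, 241 ± 30.7 and 178 ± 51.8 and rose in PD1hi by 3.26 ± 0.23 against Tconv and 2.79 ± 0.23 against Treg (adjusted p = 1.33e-06 and 5.26e-06). The sum of 14 myeloid and dendritic cell markers overlapped between populations, at 2003 to 2606, 1683 to 3228 and 1436 to 2983. The sum of 5 plasma cell markers was 3513 to 6532, 3776 to 7167 and 1702 to 2684, and that of 8 markers of CD8, NK and innate-like T cells was 619.7 to 796, 487 to 710.3 and 2345 to 2439. The sum of 6 erythroid and platelet markers stayed under 100 in every library. No marker of these lists was at 0 reads over a whole population, and the part of these cells in the receptor results was not tested. T cell markers were high throughout, with a sum of 6 genes of 110904 to 123049, 94724 to 104081 and 92905 to 99548.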

How the data were processed

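RNA of sorted splenic CD4+ T cells was extracted with Trizol, depleted of ribosomal RNA with a low-input RiboMinus kit and made into Ion Torrent libraries, per the labels' protocols. The submitters' processing notes name the tools HTSeq 0.5.4, Picard and limma and the builds mm9, hg19 and GRCh37. Which build had which role, which aligner was used and whether strand was counted is not given in the sources used here. A table of signal values for 18649 genes in 13 libraries was deposited by the authors. In each library, 100% of the deposited values were 1 plus a multiple of a single constant (within 0.001 reads). The added 1 was subtracted to give scaled counts, and the constants gave reads and depth.

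Within an experiment, libraries of a population were averaged (9 values), because the labels do not say what the 4 libraries titled replicate are. Genes whose mean scaled count reached 10 were tested with limma 3.58.1 in R 4.3.3 (trend, log2 of scaled count + 1, 1 variance estimate for the 3 populations, 2-sided, Benjamini-Hochberg). Such fold changes understate changes of low genes. The script was tested on simulated data. Titles number the experiments. Deviations from the population means correlated by 0.218 to 0.298 between Treg and Tconv of 1 experiment. Between PD1hi and the others they correlated by -0.07 to 0.197, not over 0.1 in every pair. The main fit did not block by experiment, so its Treg against Tconv results leave this pairing out. Blocked values are given where they changed a call of the 9 genes. The receptor genes, the gene lists, the tests and the rule for named genes were chosen with earlier results of these data known. All 9 receptors were named with each library's value. From each list, at most the 3 called genes with the largest change per comparison were named. Each ligand's level, some of the genes next to a receptor and the 2 most alike genes were given as well. Malt1 was named outside this rule, as the only rise of its list in PD1hi against Tconv. Exon lengths were had for 13447 of the genes tested. Alternatives were other scalings, filters, pseudocounts, ways to treat the repeated libraries, left-out values, the replicate block and, added after the data were seen, voom on whole reads and left-out single libraries.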

Additional observations from a re-analysis of the deposited data

Results flagged for a closer look

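Of 18 sets of 5 libraries examined (9 genes in Treg and in Tconv), 1 held a library far from the others. Tnfrsf25 was at 1832.1 in the first Treg library of experiment 3, where the other 4 Treg libraries lay between 1366.63 and 1431.1. The gap to the nearest library was 0.861 of the whole range. Chance flags about 1 in 20 such sets. The second library of the same experiment was at 1366.63, the lowest of the 5, so the pair spans the range of Treg. The PD1hi population has 3 libraries and was not examined in this way.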

How the results depend on the processing

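Of 27 results (9 genes in 3 comparisons), 18 stayed on their side of the threshold in all 22 other settings, and no called difference changed sign. Tnfrsf25 in PD1hi against Treg, not called in any setting, changed sign with equal totals (0.02) and without the Treg value of experiment 3 (0.01). Scaling to equal totals moved the median of all genes in PD1hi against Tconv to 0.14 and the share of higher calls from 54.4% to 65.4%. With equal totals, Tnfrsf25 gave -0.28 (adjusted p = 0.189), Cd27 0.41 (0.049) and Cd28 0.41 (0.0196) in PD1hi against Tconv, Tnfrsf4 gave -0.60 (0.0835) in PD1hi against Treg, and Cd27 0.47 and Fas 0.47 passed in Treg against Tconv. Tnfrsf25 in PD1hi against Tconv, -0.42, missed the threshold without a filter (0.0512) and with only the 2 populations (0.0695). Treating 13 libraries as separate values called 3151 instead of 2039 genes in Treg against Tconv, with Tnfrsf25 at -0.36, Cd27 at 0.38 and Fas at 0.45, and put Icos past the test in PD1hi against Treg at -0.34 (0.016). With duplicateCorrelation the last was -0.34 (0.0262), and Cd27 at 0.39 and Fas at 0.43 passed in Treg against Tconv, as they did with only the 2 populations, at 0.40 and 0.40.

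Leaving out 1 value at a time gave -0.51 to -0.32 for Tnfrsf25 in PD1hi against Tconv, -0.76 to -0.54 for Tnfrsf4 and 0.43 to 0.59 for Cd28 in PD1hi against Treg, and 0.33 to 0.48 for Cd27 and 0.35 to 0.50 for Fas in Treg against Tconv. Without the second Treg library of experiment 3, Tnfrsf25 was at -0.42 in PD1hi against Tconv and Cd27 at 0.42 in Treg against Tconv. Without that and the PD1hi library of experiment 6, Tnfrsf25 was at -0.42 and Cd28 at 0.35 in PD1hi against Tconv, and Cd27 at 0.42 and Fas at 0.44 in Treg against Tconv. The causes were not tested. With voom on whole reads, added after the data were seen, 3610, 2393 and 2206 genes passed and no call of the 9 genes changed.

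With the experiment as a replicate block, 3974 genes passed in PD1hi against Tconv, 2579 in PD1hi against Treg and 2204 in Treg against Tconv. With the block, Tnfrsf4 no longer passed in PD1hi against Treg, at -0.67 (0.0549), and Cd27 passed in Treg against Tconv at 0.40 (0.0414). It changed no other call of the 9 genes.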
